A study of Homo sapiens with 12 samples.

Results

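The nuclear genes of the respiratory chain were followed in HNSCC cells (head and neck squamous cell carcinoma) exposed to interferon alpha (IFNα). The set took every row of the gene table whose symbol begins with NDUFA, NDUFB, NDUFC, NDUFS or NDUFV and a number, with UQCR, with COX4 to COX8 or with ATP5, or is SDHA, SDHB, SDHC or SDHD. Names of pseudogenes and antisense genes were left out, as were genes with a mean below 50 estimated counts over the 12 samples. This gave 77 genes of the 60099 in the table. By textbook assignment, 36 belong to complex I, 4 to complex II, 8 to complex III, 12 to complex IV and 15 to complex V, while ATP5S and ATP5SL carry an ATP5 name but are not subunits. The study sequenced RNA depleted of rRNA from 2 HNSCC lines, Cal27 and HN30, cultured for 24 h without IFNα, with 20 ng/ml or with 200 ng/ml. Samples are named by letter and replicate. A and D were untreated, B and E received 20 ng/ml, and C and F received 200 ng/ml, each with 2 replicates. Letters A to C form one line set and D to F the other, and the text used here does not say which set is which line. All are established lines grown alone, so no group holds the other cells of a tumor.

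The respiratory chain sits in the inner mitochondrial membrane. Complex I takes electrons from NADH and complex II from succinate, ubiquinone carries them to complex III, cytochrome c carries them to complex IV, and complex IV passes them to oxygen. Complexes I, III and IV pump protons, and complex V, the ATP synthase, uses the return flow to make ATP. Most subunits are encoded in the nucleus, while a small group of core subunits is encoded in the mitochondrial genome. In tumor cells the balance between this pathway and glycolysis varies from line to line.

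The samples held between 10517448 and 16056734 estimated counts, and every control was sequenced more deeply than every sample at 200 ng/ml. The squamous markers (9 genes, among them KRT5, KRT14 and TP63) summed to between 2431 and 3691 TPM (transcript abundance per length and depth, scaled to a common total). The line sets differed in them. KRT14 was at 41.9 to 49.2 TPM in A-C, but at 0 TPM in D and E and 0.25 and 0.18 TPM in F. KRT5 was at 914 to 1248 TPM in A-C and 237 to 263 TPM in D-F. In D1, KRT8 and KRT18 stood at 892 and 767 TPM, above KRT5 at 248 TPM. The leukocyte markers summed to at most 2.33 TPM, with CD3E at 0 in all 12 samples, and the fibroblast markers to at most 14.01 TPM, nearly all of it COL1A1. Of the endothelial markers, PECAM1 and VWF stayed below 1 TPM while CDH5 reached 21.7 TPM in A-C. The response to IFNα was present, since all genes of a list of 25 interferon-stimulated genes rose at both doses, with a median of 3.74 (log2 fold change) at 200 ng/ml. Nothing in the labels says that replicates came from separate cultures, so the p-values measure the spread between these samples, which may be technical.

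The 77 genes were expressed over a wide range. On the TPM scale the highest mean over all samples belonged to ATP5J2, subunit f of the ATP synthase, at 532 TPM, followed by COX6A1 of complex IV at 400.0 TPM and SDHA, the flavoprotein of complex II, at 354 TPM. The lowest belonged to ATP5S at 6.73 TPM, NDUFB6 at 10.4 TPM and NDUFA2 at 15.3 TPM. The highest of complex I was NDUFV1, the subunit that takes electrons from NADH, at 182 TPM, and the highest of complex III was the hinge protein UQCRH at 156 TPM. The readthrough genes ATP5J2-PTCD1 and NDUFC2-KCTD14 share exons with ATP5J2 and NDUFC2, but they averaged only 20.6 and 0.25 counts. A second row named SDHD, which overlaps the member of that name, averaged 7.08 counts and was left out. The rows that matched the name patterns and were left out summed to between 0.451% and 0.732% of the members' counts. The SDH names had to match in full, so any pseudogenes of SDHA to SDHD are not in this sum.

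Summed over the 77 genes, the level was highest in the untreated A samples, at 7898 and 7782 TPM. It was 6896 and 7153 TPM in B and 6546 and 6657 TPM in C, so the 3 doses did not overlap and C lay 15.8% below A, or 10.4% below it when the genes of the mitochondrial genome were left out of the TPM total. In the other set the sums were 7264 and 6959 TPM in D, 7057 and 6910 TPM in E and 6905 and 6930 TPM in F. F lay 2.73% below D on average, and both F samples were just below the lower D sample. On CPM (counts per depth, with no division by gene length) after TMM scaling, C lay 14.5% below A and F 8.73% below D. TPM is a share of a fixed total, and genes of the mitochondrial genome took 8.40% and 8.65% of it in A but 12.2% and 15.7% in C, against 7.39% to 8.78% in D-F.

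**Figure D1:**
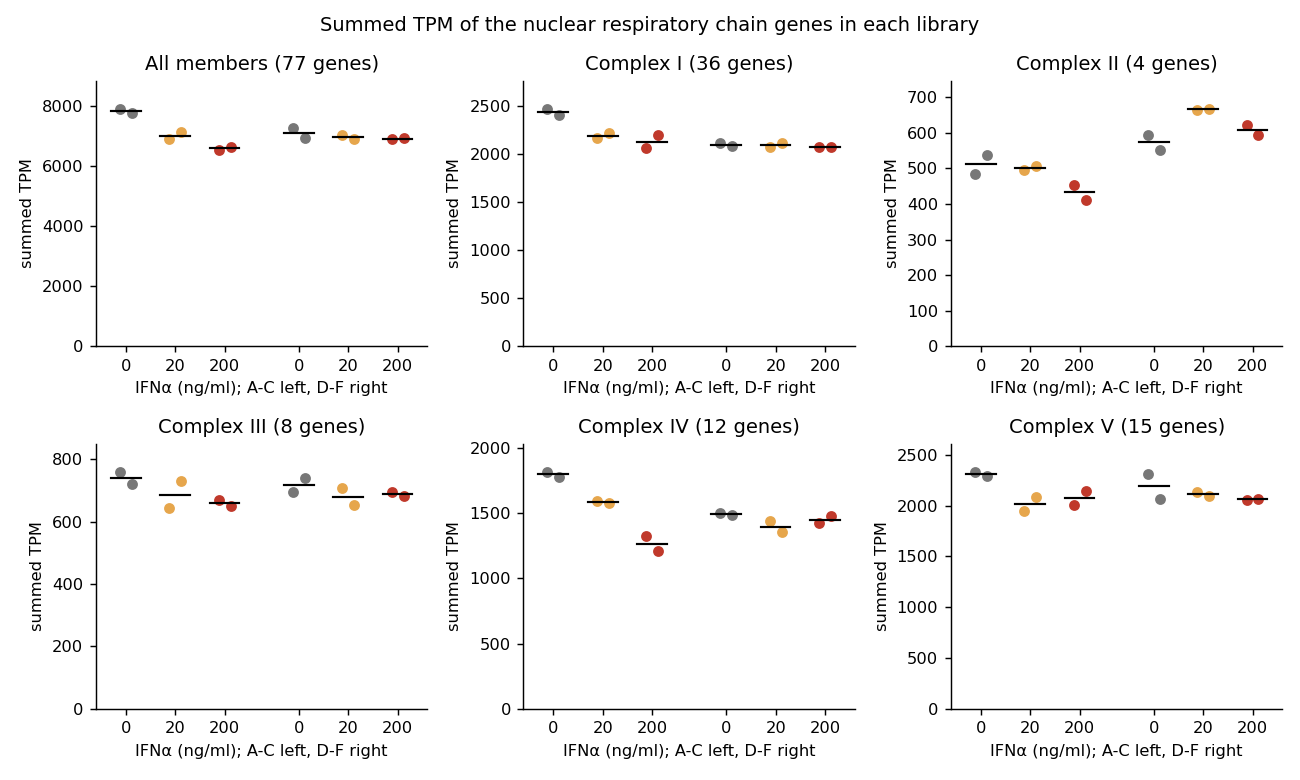
Summed TPM (y axis, from 0) of all 77 genes and of the genes of complexes I to V by IFNα dose (x axis), A-C on the left and D-F on the right of each panel; points are single samples and lines are the means of 2. Complex IV in A-C goes from 1815 and 1781 TPM in the controls to 1321 and 1211 TPM at 200 ng/ml, the largest relative step of the 5 complexes, while in D-F all 6 samples lie between 1353 and 1505 TPM.

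By complex, the sum of complex IV moved most in A-C, from 1815 and 1781 TPM without IFNα to 1596 and 1578 TPM at 20 ng/ml and 1321 and 1211 TPM at 200 ng/ml. Complex I went from 2461 and 2406 TPM to 2060 and 2194 TPM and complex V from 2329 and 2287 TPM to 2004 and 2139 TPM between the same doses. In both complexes the controls and the samples at 200 ng/ml did not overlap. Within complex V the sum of the F1 head went from 841 and 926 TPM in A to 656 and 616 TPM in C. That of the membrane part Fo went from 732 and 659 TPM to 733 and 851 TPM, but most of it was ATP5J2. On log2(TPM + 0.5), the Fo changes were 0.38 for ATP5J2, 0.19 for ATP5L and 0.02 for ATP5G2. ATP5I, ATP5G3 and ATP5G1 gave −0.70, −0.35 and −0.34. In F1, ATP5A1 gave −1.11 and the other genes −0.55 to −0.09. None of these passed, so the sums do not describe each part's genes alike. In D-F the sum of complex II was 594 and 553 TPM in D, 666 and 666 TPM in E and 622 and 595 TPM in F, higher in every treated sample than in every control, although the lowest treated sample was barely above the higher control. SDHA, with a mean of 354 TPM over all samples, was the largest part of this sum. On log2(TPM + 0.5), F against D gave 0.07 for SDHA, 0.66 for SDHD, −0.04 for SDHB and −0.02 for SDHC, and none passed.

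To ask which single genes changed, the estimated counts of all genes were fitted together with edgeR's quasi-likelihood test, and a gene was said to rise or fall at a Benjamini-Hochberg adjusted p of at most 0.05. At 200 ng/ml against control, over both line sets, 14 of the 77 genes fell and 0 rose. Of the 19944 genes tested, 4.57% fell and 4.98% rose, so 18.2% of the set against 4.57% of all genes were called lower. Shares of all genes, here and below, include genes that were not held to the minimum mean count of the set. The part of this mismatch in the gaps between the set and all genes was not tested. The median log2 fold change of the set was −0.21, beside −0.01 for all genes tested, and 61 of the 77 values were below 0, beside 51.4% of all genes. The changes were small: only ATP5S passed with a change of 2-fold or more, as did 2.14% of all genes. The other 13 lay between 1.18-fold and 1.46-fold lower. The count depended on single samples, falling from 14 to 9, 8, 7, 6 and 7 without A2, D1, D2, F1 and F2 in turn. In RNA of a whole culture, fewer cells with a transcript and less of it per cell cannot be told apart. The part of the depth difference between controls and treated samples in these falls was not tested.

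**Figure D2:**
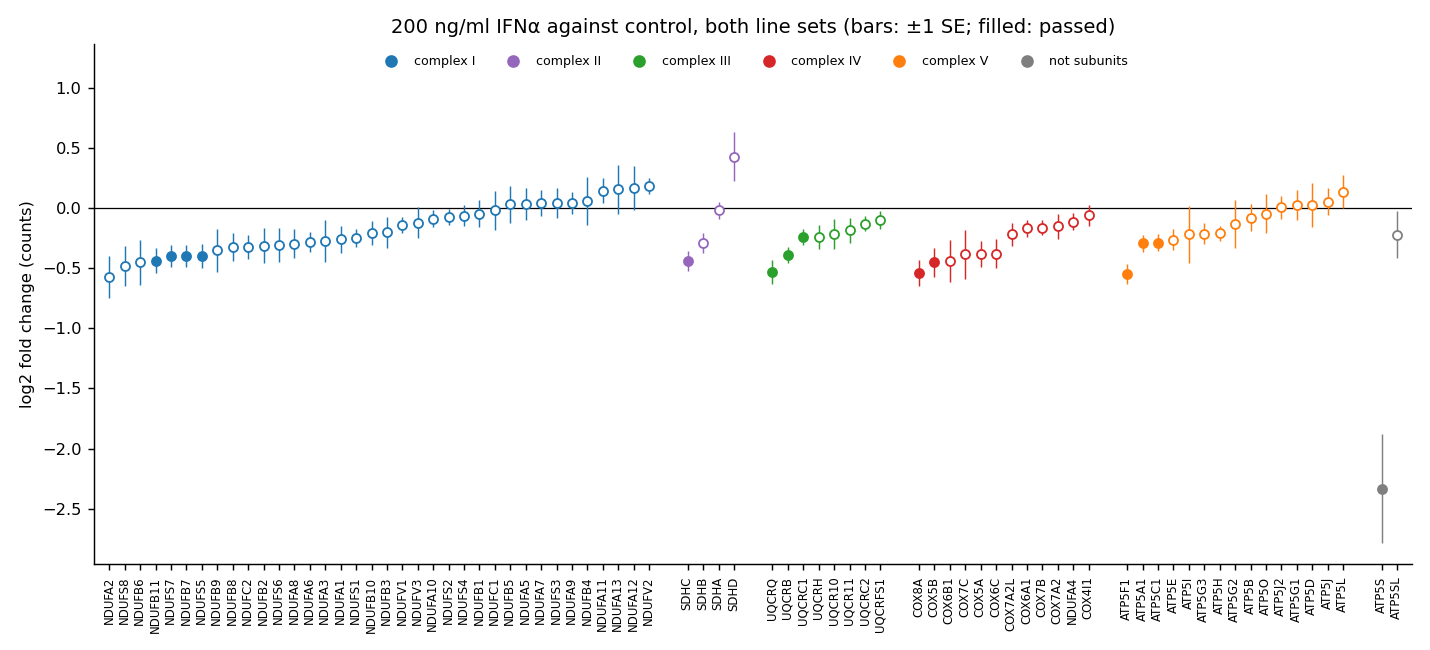
Log2 fold change (y axis) at 200 ng/ml against control for each of the 77 genes (x axis), grouped by complex and ordered within it; bars are ±1 SE and filled points passed an adjusted p of 0.05. The 12 genes of complex IV and the 8 of complex III are all below 0, and ATP5S stands apart at −2.33.

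Complex IV, cytochrome c oxidase, had 12 of 12 values below 0, with a median of −0.30, and 2 genes that fell. COX8A, the ubiquitous isoform of a small subunit (chr11:63974607-63976543), showed the lowest value of the complex. Its level was 313 and 363 TPM in A, 264 and 303 TPM in B and 193 and 159.8 TPM in C. In the other set it was 201 and 240.4 TPM in D, 213 and 194 TPM in E and 196 and 222 TPM in F. Both C samples lay below both A samples, while D and F overlapped. COX8A fell with a log2 change of −0.54 ± 0.11 (SE, adjusted p = 0.0128) and passed in 18 of 19 alternative analyses. COX5B, a nuclear subunit that binds zinc, was at 145 and 164 TPM in A and 101 and 71.2 TPM in C, and at 123 and 118 TPM in D and 119 and 122 TPM in F. It fell with a log2 change of −0.45 ± 0.12 (SE, adjusted p = 0.0451), a call that was kept in 4 of 19 alternative analyses. COX6A1, the most abundant gene of the complex, gave −0.17 ± 0.07 (SE, adjusted p = 0.179) and COX4I1, the subunit on which ATP is known to act, gave −0.06 ± 0.09 (SE, adjusted p = 0.757), the value of the complex nearest to 0.

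Complex III, the cytochrome bc1 complex, had 8 of 8 values below 0, with a median of −0.23, and 3 genes that fell. UQCRQ, a small subunit (chr5:132866560-132868031), was at 55.7 and 71.1 TPM in A, 52.3 and 54.7 TPM in B and 34.6 and 36.2 TPM in C. In D, E and F it was at 48.9 and 50.2, 45.98 and 48.2 and 56.1 and 49.4 TPM. The A and C samples did not overlap, whereas on this scale 1 F sample lay above both D samples. UQCRQ fell with a log2 change of −0.53 ± 0.10 (SE, adjusted p = 0.00999) and did so in all 19 alternative analyses. UQCRC1, a core protein, fell with a log2 change of −0.24 ± 0.06 (SE, adjusted p = 0.0447), and passed in 5 of 19. UQCRB is described with the count and TPM scales below. UQCRFS1, the Rieske iron-sulfur protein that hands electrons to cytochrome c1, gave −0.10 ± 0.08 (SE, adjusted p = 0.479).

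Complex I, NADH dehydrogenase, had 26 of 36 values below 0, with a median of −0.21, and 4 genes that fell. Of these, 3 were of the 20 in the proton-pumping P module (NDUFB11, NDUFB7 and NDUFS5) and 1 of the 8 in the ubiquinone-binding Q module (NDUFS7). NDUFB7, a supernumerary subunit on the intermembrane side, was at 98.6 and 105 TPM in A and 69.8 and 60.3 TPM in C, and at 74.7 and 79.05 TPM in D and 69.5 and 74.8 TPM in F. NDUFB7 fell with a log2 change of −0.40 ± 0.09 (SE, adjusted p = 0.0218). NDUFB11 fell with a log2 change of −0.44 ± 0.10 (SE, adjusted p = 0.0276), NDUFS5 with a log2 change of −0.40 ± 0.10 (SE, adjusted p = 0.0352) and NDUFS7, which carries the iron-sulfur cluster nearest to ubiquinone, with a log2 change of −0.40 ± 0.09 (SE, adjusted p = 0.0219). Of the 19 alternative analyses, NDUFB7 and NDUFB11 each passed in 12, NDUFS7 in 13 and NDUFS5 in 7. The lowest value of the complex, −0.57 ± 0.17 (SE, adjusted p = 0.0742) for NDUFA2, did not pass. None of the 8 genes of the NADH-binding N module passed. Its NDUFV2, an iron-sulfur core subunit, had the highest value of the complex, 0.18 ± 0.07 (SE, adjusted p = 0.118), and was the one gene of the 77 that was higher without overlap in both line sets. NDUFV1 gave −0.14 ± 0.07 (SE, adjusted p = 0.241).

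Complex V had 10 of 15 values below 0, with a median of −0.13, and 3 genes that fell. ATP5F1, subunit b of the peripheral stalk (now ATP5PB, chr1:111448864-111462773), was at 234 and 198 TPM in A, 131 and 190.0 TPM in B and 165 and 139 TPM in C. In the other set it was at 74.5 and 75.4 TPM in D, 50.5 and 52.6 TPM in E and 52.9 and 51.4 TPM in F. Treated and control samples did not overlap in either set. ATP5F1 fell with a log2 change of −0.55 ± 0.08 (SE, adjusted p = 0.00313) and in all 19 alternative analyses. In the F1 head, ATP5A1 (subunit alpha) fell with a log2 change of −0.29 ± 0.07 (SE, adjusted p = 0.0332) and ATP5C1 (subunit gamma, the rotating shaft) with a log2 change of −0.29 ± 0.07 (SE, adjusted p = 0.0271). ATP5A1 passed in 7 and ATP5C1 in 11 of the 19 alternatives, and neither did so on TPM. ATP5B, the catalytic subunit beta, gave −0.08 ± 0.12 (SE, adjusted p = 0.756). None of the 6 genes of Fo passed, with ATP5J2 at 0.01 ± 0.10 (SE, adjusted p = 1) and ATP5L at 0.13 ± 0.14 (SE, adjusted p = 0.626).

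Complex II, succinate dehydrogenase, showed its lowest value in the membrane anchor SDHC, which fell with a log2 change of −0.44 ± 0.08 (SE, adjusted p = 0.00993). The other anchor, SDHD, had the highest value of all 77 genes, 0.43 ± 0.20 (SE, adjusted p = 0.241), and did not pass. Its controls differed widely among themselves, at 33.5 and 25.6 TPM in A and 26.1 and 46.98 TPM in D, against 36.5 and 30.1 TPM in C and 52.4 and 59.5 TPM in F. Without D2, SDHD rose, with an adjusted p of 0.0243 from edgeR and a range of 0.0243 to 0.485 over its alternatives. The catalytic SDHA gave −0.02 ± 0.07 (SE, adjusted p = 0.926) and the iron-sulfur SDHB −0.29 ± 0.08 (SE, adjusted p = 0.0581). SDHB passed in 4 of 19 alternatives, and SDHC in 18.

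Of the 77 genes, 25 were lower at 200 ng/ml than in the controls of their own line set with no overlap of CPM in both sets. This is 32.5% beside 8.66% of all genes tested, which were not held to the same mean count. The reverse held for 1.3% of the set and 8.23% of all genes.

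The counts and the TPM values deposited by the authors did not always move together. The same comparison on log2(TPM + 0.5), fitted with limma, gave 7 genes that fell and 0 that rose, beside 2.02% and 3.71% of all genes on that scale. These were ATP5F1, COX8A, COX5A, UQCRQ, NDUFB7, NDUFB11 and NDUFS5, and 6 of them were among the 14. ATP5S, SDHC and UQCRB, which fell on counts, were far from passing on TPM. ATP5S, coupling factor B and now named DMAC2L, had 9.99 and 14.98 CPM in A and 18.6 and 18.3 CPM in D, against 3.60 and 3.27 CPM in C and 2.66 and 2.59 CPM in F. The count fold change was −2.33 ± 0.45 (SE, adjusted p = 0.0117), yet on TPM it was −0.42 ± 0.21 (SE, adjusted p = 0.304). A single transcript, ENST00000311459, held 60, 199, 254 and 253 counts in A1, A2, D1 and D2 and 0 in all 4 samples at 200 ng/ml. At 20 ng/ml it held 176 and 3 counts in B1 and B2 and 219 and 203 in E1 and E2, so the replicates of B went apart.

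For SDHC the fold change was −0.44 on counts and −0.16 ± 0.17 (SE, adjusted p = 0.636) on TPM. UQCRB, a small subunit of complex III, had 82.8 and 76.98 CPM in D and 47.9 and 49.3 CPM in F, but 53.5 and 49.9 TPM in D and 55.5 and 39.01 TPM in F. Its fold change was −0.39 ± 0.07 (SE, adjusted p = 0.00606) on counts and −0.08 ± 0.14 (SE, adjusted p = 0.794) on TPM. The longest-spanning transcript of UQCRB, ENST00000287022, had 911 and 916 counts in D and 286 and 420 in F. Gene counts were the sums of transcript counts for all 77 genes. The part of the division of reads between transcripts in these gaps was not tested.

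**Figure D3:**
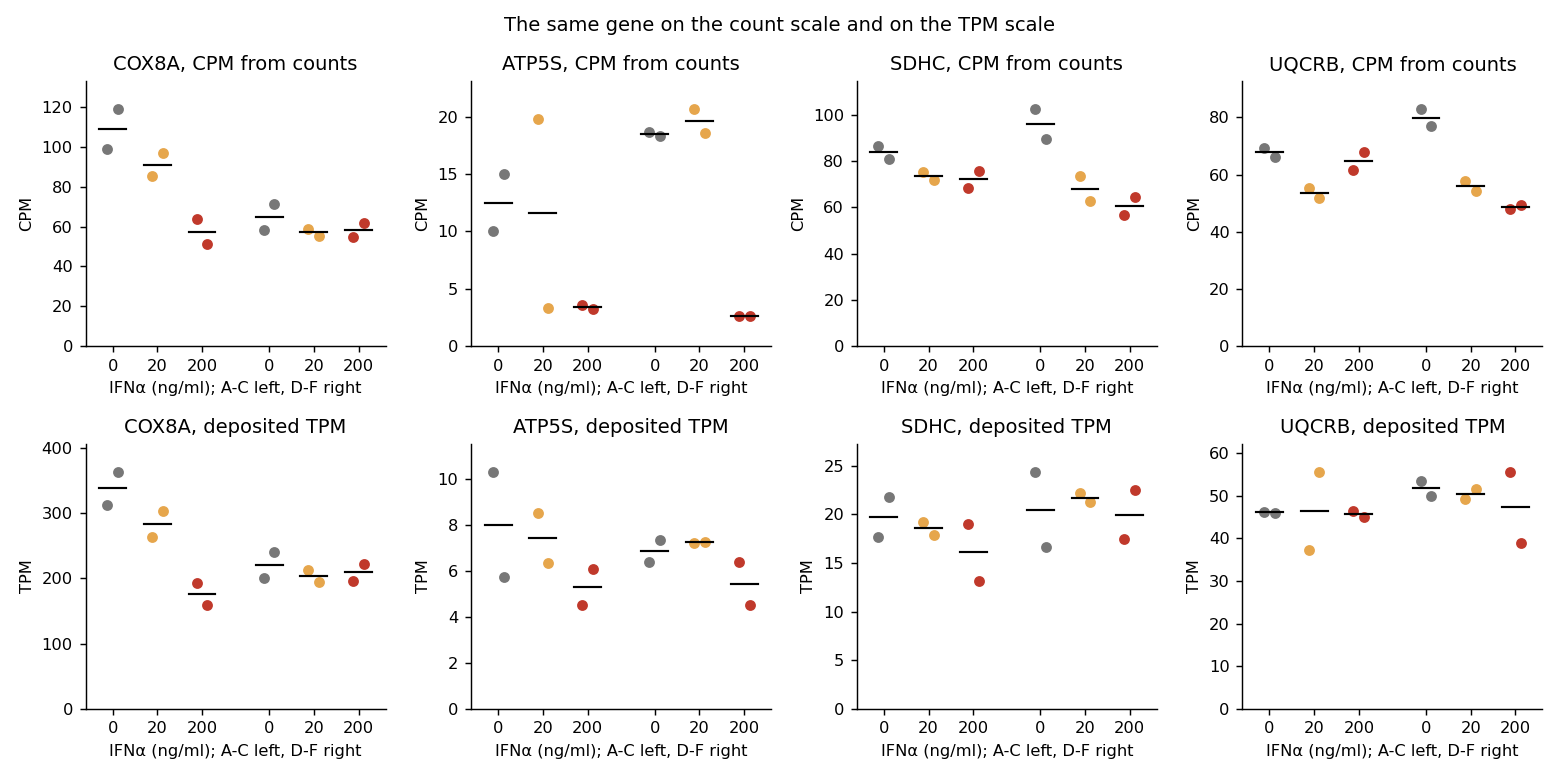
CPM after TMM scaling (top row) and deposited TPM (bottom row) of COX8A, ATP5S, SDHC and UQCRB by IFNα dose, A-C on the left and D-F on the right of each panel; points are single samples and lines are means of 2. COX8A shows the same pattern on both scales. ATP5S is at 2.59 to 3.60 CPM at 200 ng/ml, below all controls, and UQCRB in F is below D on CPM, whereas on TPM ATP5S in C and UQCRB in F overlap their controls.

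Promoter sequence was available for 63 of the 77 genes, from RefSeq on GRCh38.p14 (matched by current symbol). Because nuclear respiratory genes are textbook targets of NRF1 and of ETS factors such as GABP, also called NRF2, the 250 bases before the start were searched on both strands for GCGCANGCG (the NRF1 motif) and CCGGAAG (the ETS motif). The NRF1 motif was found in 17 windows (27.0%) beside 6.56% of the 35116 windows in the table, and the ETS motif in 17 (27.0%) beside 8.52%. Both were present in 3 windows and overlapped in none. Of the 10 genes that fell and had a window, 5 held the ETS motif and 3 the NRF1 motif. GAAANNGAA, the core of the element bound by interferon-activated ISGF3, was in 5 windows (7.94%), beside 6.88% of all windows. The GC box GGGGCGGGG, bound by SP1, was in 10 (15.9%) beside 15.1%, and the YY1 motif AAGATGGCG in 1 (1.59%) beside 0.652%. Where a member had several starts, the one nearest to the most counted transcript was taken, and 43 of 63 lay within 100 bases of it. The 35116 windows were not chosen in this way. They hold every start in the table, also several of one gene and those of genes not expressed here. The shares thus compare unlike sets of windows. These matches describe letters, not binding. The windows of the 4 genes with an ETS motif among the 10 largest falls are shown, 5′ to 3′ on the gene's strand and ending at the base before the start, with that motif in capitals (CTTCCGG where it lies on the opposite strand).
COX8A: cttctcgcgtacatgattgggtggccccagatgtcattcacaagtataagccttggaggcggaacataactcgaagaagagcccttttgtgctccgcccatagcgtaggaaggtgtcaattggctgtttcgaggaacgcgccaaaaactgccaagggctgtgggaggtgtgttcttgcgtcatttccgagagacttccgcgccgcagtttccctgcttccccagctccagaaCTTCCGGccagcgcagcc
COX5B: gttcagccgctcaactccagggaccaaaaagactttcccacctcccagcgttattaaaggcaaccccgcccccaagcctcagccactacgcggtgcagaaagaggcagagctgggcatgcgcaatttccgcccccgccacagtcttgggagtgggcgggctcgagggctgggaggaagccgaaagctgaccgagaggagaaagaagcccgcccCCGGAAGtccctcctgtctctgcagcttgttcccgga
UQCRQ: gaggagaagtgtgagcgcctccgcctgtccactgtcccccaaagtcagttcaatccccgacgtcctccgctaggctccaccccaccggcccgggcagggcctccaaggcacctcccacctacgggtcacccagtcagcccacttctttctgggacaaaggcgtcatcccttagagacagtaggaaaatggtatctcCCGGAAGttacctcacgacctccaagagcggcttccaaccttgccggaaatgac
NDUFB7: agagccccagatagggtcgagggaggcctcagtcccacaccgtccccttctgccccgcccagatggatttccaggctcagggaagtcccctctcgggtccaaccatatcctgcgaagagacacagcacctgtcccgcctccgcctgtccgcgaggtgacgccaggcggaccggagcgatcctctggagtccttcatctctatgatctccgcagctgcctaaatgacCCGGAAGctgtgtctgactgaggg
They lie at chr11:63974370-63974619, plus strand (COX8A), chr2:97645812-97646061, plus strand (COX5B), chr5:132866392-132866641, plus strand (UQCRQ) and chr19:14572067-14572316, minus strand (NDUFB7). The motif begins 18, 37, 54 and 24 bases before the start, in the same order. That start is the RefSeq one, which lay 13, 22, 82 and 4 bases from the start of the most counted transcript. The UQCRQ motif therefore lies inside the gene interval given above, and the COX8A motif runs across the first base of its interval.

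At 20 ng/ml, 2 of the 77 genes fell and 0 rose, beside 1.6% and 2.33% of all genes. They were UQCRB, with −0.42 ± 0.07 (SE, adjusted p = 0.00672), and ATP5F1, with −0.42 ± 0.08 (SE, adjusted p = 0.0199). ATP5F1 stood at 50.5 and 52.6 TPM in E against 74.5 and 75.4 TPM in D. The median of the set was −0.12, beside −0.01 for all genes, and 66 of 77 values were below 0, beside 51.8%. All 12 values of complex IV and all 8 of complex III were again below 0. SDHC gave −0.34 ± 0.08 (SE, adjusted p = 0.054) and SDHD again had the highest value, 0.43 ± 0.20 (SE, adjusted p = 0.325). The 2 doses share their controls, so the same sign at both is not independent. Without A1, D1, B2 or E1, 1 of the 2 calls was lost, and on TPM both were, where 0.537% of all genes were called lower.

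Between 200 and 20 ng/ml, which do not share samples, 0 of the 77 genes passed with edgeR (13 at an unadjusted p of at most 0.05) and 1 with DESeq2. Of all genes 0.135% passed with edgeR, and 1.04% of those with an adjusted p from DESeq2. No share of all genes at an unadjusted p is given, so counts at an unadjusted p, here and below, cannot be set against it. The set's median was −0.05. The lowest values were −2.32 ± 0.45 (SE, adjusted p = 0.142) for ATP5S and −0.47 ± 0.18 (SE, adjusted p = 0.468) for NDUFA2, and the highest was 0.31 ± 0.21 (SE, adjusted p = 0.683) for NDUFA13, also known as GRIM-19. COX8A gave −0.32 ± 0.11 (SE, adjusted p = 0.409) and UQCRQ −0.31 ± 0.10 (SE, adjusted p = 0.397).

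The response to 200 ng/ml was also taken within each line set, against its own controls. In A-C, 11 genes fell and 0 rose, beside 3.6% and 3.58% of all genes. Complex IV gave 3 of them (COX8A, COX5B and COX5A), complex I 4 (NDUFA8, NDUFB11, NDUFB7 and NDUFS7), complex V 2 (ATP5A1 and ATP5H), and complexes II and III 1 each (SDHB and UQCRQ). The deepest was UQCRQ, 1.91-fold lower with a log2 change of −0.93 ± 0.14 (SE, adjusted p = 0.00631), followed by COX8A, 1.89-fold lower with a log2 change of −0.92 ± 0.15 (SE, adjusted p = 0.00901). COX6B1 and COX7C, at −0.79 and −0.84, did not pass. In both, the C replicates were far apart, at 97.9 and 51.6 TPM for COX6B1 and 91.8 and 45.8 TPM for COX7C. The count of 11 dropped to 7, 2 and 2 without A1, A2 and C2.

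In D-F, 5 genes fell and 0 rose, beside 2.39% and 3.44% of all genes. They were ATP5S, ATP5F1, UQCRB, SDHC and NDUFB10. ATP5F1 was 1.70-fold lower with a log2 change of −0.77 ± 0.12 (SE, adjusted p = 0.00452). NDUFB10, a P module subunit, was at 66.6 and 56.2 TPM in D and 43.2 and 45.8 TPM in F and gave −0.61 ± 0.14 (SE, adjusted p = 0.0377), against 0.19 ± 0.14 (SE, adjusted p = 0.48) in A-C. No gene of complex IV passed, and its 12 values lay between −0.50 for COX7A2L, which joins complexes III and IV, and 0.07 for COX7C. The count was 2, 2, 3 and 3 without D1, F1, F2 and E2, and on log2(TPM + 0.5) with limma 0 of the 77 genes passed in D-F (9 at an unadjusted p of at most 0.05), beside 3.76% of all genes.

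At 20 ng/ml the same split gave fewer calls. In A-C 0 of the 77 genes fell or rose with edgeR, beside 0.196% and 0.913% of all genes (12 of the 77 were at an unadjusted p of at most 0.05, and 1 fell when B1 was left out). In D-F 2 fell and 0 rose, beside 1.22% and 2.15% of all genes. They were ATP5F1, with −0.58 ± 0.12 (SE, adjusted p = 0.0277), and UQCRB, with −0.51 ± 0.09 (SE, adjusted p = 0.0181). Both calls were lost without D1, D2 or E1, and 1 without E2.

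**Figure D4:**
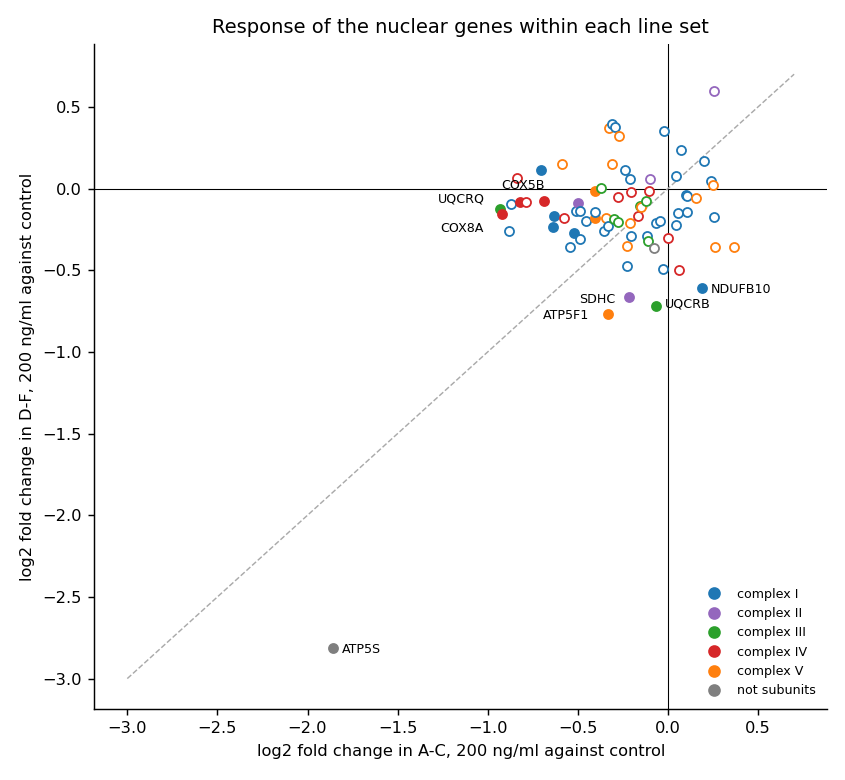
Log2 fold change at 200 ng/ml against control in A-C (x axis) and in D-F (y axis) for the 77 genes, colored by complex; filled points passed in at least 1 set and the dashed line marks equal change. COX8A, UQCRQ and COX5B lie far to the left and close to 0 on the y axis, while UQCRB, SDHC and NDUFB10 lie low and nearer to 0 on the x axis.

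The difference between the sets was tested directly, as the response in D-F minus that in A-C. It passed for 1 of the 77 genes, beside 1.88% of all genes. This was UQCRB, at −0.07 in A-C and −0.72 in D-F, with a difference of −0.65 ± 0.13 (SE, adjusted p = 0.0455). It passed also with DESeq2 and with RLE scaling, but not on TPM, where the difference was −0.13 ± 0.28 (SE, adjusted p = 0.863), nor when any of 11 of the 12 samples was left out. The differences of UQCRQ, 0.81 ± 0.20 (SE, adjusted p = 0.0776), COX8A, 0.76 ± 0.21 (SE, adjusted p = 0.108), COX5B, 0.74 ± 0.24 (SE, adjusted p = 0.152), and NDUFB10, −0.80 ± 0.20 (SE, adjusted p = 0.0816), did not pass. DESeq2 called UQCRB, NDUFB10 and ATP5J2 lower in D-F relative to A-C, and UQCRQ, COX8A and NDUFA9 higher, beside 4.24% and 4.28% of the 11051 genes to which it gave an adjusted p. For 20 ng/ml, 0 genes passed with edgeR, beside 0.371% of all genes, 5 were at an unadjusted p of at most 0.05, and DESeq2 called 1, beside 2.02% of the genes it gave an adjusted p.

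The untreated sets differed far more than the doses did. In D against A, 29 genes were lower and 7 higher, beside 22.4% and 24.1% of all genes. Thus 37.7% of the set and 22.4% of all genes were lower, while 46.8% of the set and 46.4% of all genes changed either way. The set's median was −0.34, beside 0.01 for all genes. Of the 77, 9 passed with a difference of at least 2-fold, a smaller share than the 26.6% of all genes that did so. With 1 line per set, the line and anything else that separates the sets cannot be told apart.

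The lowest value belonged to ATP5F1, at 234 and 198 TPM in A and 74.5 and 75.4 TPM in D, 3.07-fold lower with a log2 change of −1.62 ± 0.12 (SE, adjusted p = 4.89e-06). In complex I, NDUFA8, a P module subunit, was 2.70-fold lower (−1.43 ± 0.17, SE, adjusted p = 1.03e-04), at 75.6 and 98.2 TPM in A and 33.2 and 37.2 TPM in D. NDUFV2 was 2.47-fold lower, at 220.0 and 194 TPM and 86.02 and 89.9 TPM, although its partner in the N module, NDUFV1, was 1.37-fold lower. NDUFA6, NDUFS8 and NDUFC2 were 2.19-fold, 2.13-fold and 2.11-fold lower. The NDUFS8 value in A1, 243 TPM beside 150.1 TPM in A2, held 536 counts of ENST00000526339, a transcript with 0 counts in A2. In complex III, UQCR11 was 2.11-fold lower, and in complex V ATP5B and ATP5G1, a subunit of the c ring, were 1.98-fold and 1.96-fold lower.

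The genes that were higher in D were NDUFB1, NDUFC1 and NDUFB8 of the P module of complex I, UQCRC1, ATP5C1, ATP5A1 and SDHA. NDUFB1 was at 21.3 and 23.3 TPM in A and 54.4 and 54.3 TPM in D, 2.39-fold higher with a log2 change of 1.26 ± 0.16 (SE, adjusted p = 1.75e-04). UQCRC1 was 1.96-fold higher, at 102 and 83.6 TPM and 189 and 206 TPM, while the other core protein of complex III, UQCRC2, was 1.70-fold lower. In the F1 head, subunits alpha and gamma were 1.27-fold and 1.34-fold higher and subunit beta lower. Complex IV had 6 genes lower and 0 higher, led by COX8A with a log2 change of −0.75 ± 0.15 (SE, adjusted p = 0.00271). At least 2-fold was reached by 2 of the 7 higher genes and 7 of the 29 lower ones. On TPM, 16 genes were lower and 8 higher, beside 16.5% and 26.0% of all genes.

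**Figure D5:**
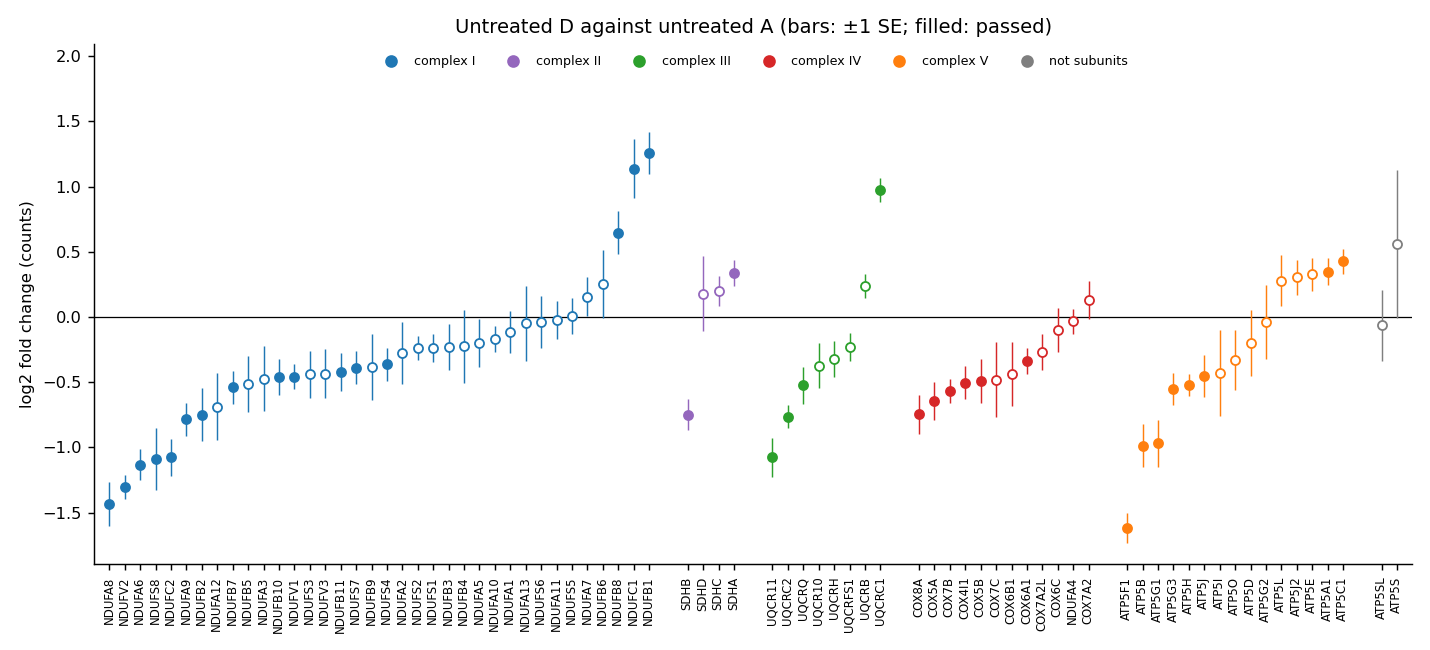
Log2 fold change (y axis) of untreated D against untreated A for each of the 77 genes (x axis), grouped by complex and ordered within it; bars are ±1 SE and filled points passed an adjusted p of 0.05. Filled points lie on both sides of 0 in complexes I, II, III and V, from −1.62 for ATP5F1 to 1.26 for NDUFB1, and on the lower side alone in complex IV.

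Genes around the chain were taken from lists. Beside the list counts at 200 ng/ml over both line sets, here and below, 4.98% of all genes rose and 4.57% fell. Of 56 assembly factors, 2 rose and 2 fell at 200 ng/ml, with a median of −0.12. PET117, which acts in complex IV assembly, rose with a log2 change of 1.16 ± 0.25 (SE, adjusted p = 0.0185), from 2.70 and 5.29 TPM in A to 14.3 and 18.5 TPM in C, with 8.37 and 7.19 TPM in D and 7.48 and 12.8 TPM in F. NDUFAF4, a complex I assembly factor, rose with 0.48 ± 0.11 (SE, adjusted p = 0.0223). NDUFAF8 and NUBPL, both of complex I assembly, fell with −0.90 ± 0.16 (SE, adjusted p = 0.00714) and −0.48 ± 0.11 (SE, adjusted p = 0.021). Of 15 regulators that were tested, among them NRF1, GABPA, TFAM and PPARGC1B, 0 passed with edgeR and 4 were at an unadjusted p of at most 0.05.

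Of 14 other carriers and subunits that were tested, 1 rose and 6 fell. C15orf48, whose product can take the place of NDUFA4 in complex IV, rose with 0.83 ± 0.19 (SE, adjusted p = 0.0237). It was at 20.01 and 16.5 TPM in D, 50.9 and 49.3 TPM in E and 50.6 and 55.98 TPM in F, and at 8.71 and 13.9 TPM in A and 16.4 and 10.3 TPM in C. The treated samples of D-F all lay above its controls, while A and C overlapped. SLC25A5 and SLC25A6, the ADP/ATP carriers that exchange the product of complex V across the membrane, fell with −0.44 ± 0.06 (SE, adjusted p = 0.00176) and −0.53 ± 0.07 (SE, adjusted p = 0.00108). ETFDH and ETFB, which feed electrons from fatty acid oxidation to ubiquinone, fell with −0.44 ± 0.11 (SE, adjusted p = 0.0379) and −0.38 ± 0.08 (SE, adjusted p = 0.017). NDUFA4L2 was at no more than 1.35 TPM in any sample and was not tested.

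The chain also holds 13 subunits encoded in the mitochondrial genome. At 200 ng/ml 6 rose and 0 fell, with a median of 0.33. In A-C 10 of 13 rose, beside 3.58% of all genes, with a median of 0.66. In D-F 0 of 13 passed with edgeR (3 at an unadjusted p of at most 0.05), with a median of −0.16. The difference between the sets passed for 7 of 13, beside 1.88% of all genes. Their summed level was 84386 and 82058 TPM in A and 119290 and 152848 TPM in C, against 86576 and 78452 TPM in D and 80351 and 72436 TPM in F. MT-ND4L of complex I gave 1.06 ± 0.09 (SE, adjusted p = 2.13e-04) in A-C and 0.03 ± 0.09 (SE, adjusted p = 0.938) in D-F, and MT-CO2 of complex IV gave 0.97 ± 0.13 (SE, adjusted p = 0.00327) and −0.16 ± 0.13 (SE, adjusted p = 0.595). The sum was higher in C2 than in C1.

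The cytosolic ribosomal proteins had 54 of 83 genes that fell and 0 that rose at 200 ng/ml, with a median of −0.35, lower than that of the respiratory chain. Of 78 mitochondrial ribosomal proteins 3 fell and 0 rose, with a median of −0.02. The tricarboxylic acid cycle had 2 of 14 genes that fell and 0 that rose (median −0.06), and glycolysis 3 of 18 that fell and 1 that rose (median −0.12). Of 8 subunit isoforms of other tissues, 2 were expressed enough to be tested and neither passed.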

How the data were processed

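RNA of 12 samples, depleted of rRNA and made into strand-specific libraries, was measured by the authors. They deposited estimated counts per gene and transcript, whole numbers not scaled for depth, with TPM scaled to a common total and FPKM scaled for length and depth (FPKM was not used). The submitters' processing notes name Trimmomatic 0.36, HISAT2 2.1.0, StringTie 1.3.3b and GRCh38.p10, with no roles given. Gene estimated counts as deposited equal the sums of transcript counts. The fit used R 4.3.3 and edgeR 4.0.16 on those counts (TMM, filterByExpr, one quasi-likelihood fit of 6 groups, all 19944 genes that passed, Benjamini-Hochberg adjustment). The SE of a gene was computed as its log2 change over the root of its F value. Changes of at least 2-fold are counted separately. DESeq2 1.42.0 and limma 3.58.1 on log2(TPM + 0.5) were alternatives. Python 3.11.15, pandas 2.3.3, numpy 2.4.6 and matplotlib 3.10.9 made tables and figures.

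Groups came from the sample titles. Named genes are, per complex, the highest mean TPM and the highest and lowest fold change, then up to 10 called genes per direction, and up to 5 called genes per outside list. The members and lists were chosen with earlier results of these data known. The scripts were tested on simulated data. The NRF1 and ISGF3 motifs were shortened by 1 letter after a longer form had been searched. Genes were assigned to complexes by hand from textbook knowledge.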

Additional observations from a re-analysis of the deposited data

Results flagged for a closer look

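Dose groups of 4 samples were screened for single samples far from the other 3, and 5 of 78 groups were marked. A rate of 1 in 20 would mark about 3.9. That rate assumes 4 samples of one kind, whereas each group holds both line sets, so it is only a rough guide. Sample C2 was the highest at 200 ng/ml for COX6A1, at 445 TPM with the others between 366 and 377 TPM, for ATP5J2, at 649 TPM with the others between 510.1 and 527 TPM, and for the sum of complex I, at 2194 TPM with the others between 2060 and 2072 TPM. In the same sample genes of the mitochondrial genome took 15.7% of TPM, the highest share of the 12, and its part in these values was not tested. Sample A1 was the highest control for UQCRFS1, at 44.5 TPM with the others between 39.2 and 39.6 TPM. Sample D2 was the lowest control for the sum of complex V, at 2062 TPM with the others between 2287 and 2329 TPM. UQCRB was marked because its response to 200 ng/ml differed between the line sets, with a tested difference of −0.65 on the log2 scale.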

How the results depend on the processing

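The medians of the 77 genes kept their sign in 178 of 178 alternative values over the comparisons. At 200 ng/ml no called gene changed sign. Of 1463 alternative values for the 77 genes, 1354 kept their side of the threshold, 85 lost it and 24 gained it. Beside 14 genes lower at 200 ng/ml, 7 were called on log2(TPM + 0.5) with limma (median −0.16), 7 with the compared groups alone, 7 with the replicate block and 1 at 2-fold, adjusted or not. For 20 ng/ml, 0 were called lower on TPM and at 2-fold by either p, and 1 with the compared groups alone. For 200 against 20 ng/ml, 1 gene was called by DESeq2 and 1 at an unadjusted p and 2-fold. In untreated D against A, 7 were lower and 2 higher at 2-fold by either p, 16 lower on TPM, and the median was −0.19 on TPM and −0.24 with totals alone. For the line set difference at 200 ng/ml, DESeq2 called 3 lower and 3 higher, 0 were lower on TPM (median 0.19), without the count filter, with the compared groups alone, with the replicate block, with totals alone and at 2-fold by either p. For that at 20 ng/ml, DESeq2 called 1, as did an unadjusted p with 2-fold. Within A-C at 200 ng/ml, DESeq2 called 18, the replicate block 3, and totals alone gave a median of −0.29. Within D-F the replicate block left 3 at 200 ng/ml and 0 at 20 ng/ml. Deviations of same-numbered samples from their group means correlated between −0.0507 and 0.0585. The labels do not say whether samples paired by the block share more than a number. Where the summed level changed by −15.8%, −2.73% and −1.81% on TPM (C against A, F against D, E against D), CPM gave −14.5%, −8.73% and −5.13%, and TPM without the genes of the mitochondrial genome, chosen after seeing the data, gave −10.4% for C against A and −3.36% for F against D. Leaving out 1 sample at a time moved the genes called lower at 200 ng/ml between 6 and 19 and higher between 0 and 1. At 20 ng/ml these counts were 1 to 3 and 0 to 1 (1 higher without D2), and for 200 against 20 ng/ml 0 to 1 were lower (1 without C1, B1 or B2). For D against A it gave 4 to 8 higher (4 without A1) and medians of −0.40 to −0.32, and for the line set difference at 200 ng/ml 0 to 1 lower and 0 to 3 higher (3 without C1, 1 without A1). Within A-C it gave 2 to 11 lower (median −0.28 to −0.23) at 200 ng/ml and 0 to 1 (median −0.19 to −0.11) at 20 ng/ml, and within D-F 2 to 6 lower and 0 to 1 higher (1 without D2) at 200 ng/ml and 0 to 2 lower at 20 ng/ml. Where an alternative changed a count the cause was not tested. A group left with 1 sample was assumed to vary like the others.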
